A study of Mus musculus with 3 samples.

Results

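Gamma delta T cells were 118 of the 13637 cells kept from the inflamed sciatic nerve of neuropathic NOD.AireGW/+ mice. They were chosen by raw counts of unique molecular identifiers (UMIs, one per captured transcript). A member had at least 1 UMI of Trdc, the constant gene of the T cell receptor delta chain, and at least 1 of the Tcrg-C genes, the constant genes of the gamma chain. It also had at least 1 UMI of the CD3 genes Cd3d, Cd3e and Cd3g combined. It had none of Cd4, of the CD8 beta chain gene Cd8b1, of the NK cell receptor gene Ncr1 or of the B cell gene Cd79a, and at most 1 UMI summed over Klra1, Klra5 and Klra9 and at most 1 over the C1q genes of macrophages. The genes of this gate are therefore no finding here, and they were left out of all tests.

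All animals were NOD.AireGW/+, that is, NOD mice with 1 copy of the GW allele of Aire, the regulator of self-antigen display in the thymus, and all had spontaneous autoimmune neuropathy. No animal without neuropathy was analysed here, so the comparisons below are between cell populations of the same nerves. CD45+ (immune) cells were sorted from enzyme-digested sciatic nerve, and their transcripts were read from the 5′ end on a droplet platform. The first 2 of the 3 libraries each held the nerve cells of a single mouse. For library 3 the nerves of 2 mice were combined, and its cells cannot be assigned to an animal. The libraries held from 3399733 to 55120460 UMIs, the fewest in library 3.

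Gamma delta T cells carry a receptor made of a gamma and a delta chain in place of the alpha and beta chains of conventional CD4 and CD8 T cells. They often settle in tissues, and the gamma V gene they use tends to go with where they live and what they secrete. In mice, cells that use Tcrg-V6 with Trdv4 arise in fetal life, settle in barrier and other tissues and make IL-17A. Other gamma delta T cells, among them users of Tcrg-V1 and Tcrg-V4, can instead make interferon gamma or lyse target cells.

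Gamma delta T cells made up 0.806% of kept cells in library 1 (31 of 3848, exact binomial 95% interval 0.548 to 1.14%). Their share was 1.02% in library 2 (84 of 8256, interval 0.812 to 1.26%). Library 3 held 3 such cells among 1533 (0.196%, interval 0.0404 to 0.571%), and its interval did not overlap that of library 2. Library 3 was also the shallowest, with a median of 1726 UMIs per barcode against 3985.5 and 4659 in libraries 1 and 2. The part of depth in its lower share was not tested. The mean share was 0.673% ± 0.427 (SD, n = 3 libraries). As a share of cells with a CD3 UMI, the values were 0.922%, 1.60% and 0.235%. Intervals of shares cover counting error only. The median UMIs of a member were 4637, 3072.5 and 2515 in libraries 1 to 3, and no member had under 1000 UMIs.

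The gate sat on sparse counts. Trdc itself was also found in 40.0% and 34.2% of NK cells of libraries 1 and 2. Of the members, 58 had exactly 1 Trdc UMI and 52 exactly 1 Tcrg-C UMI, while 33 had at least 2 of both. Just outside, 198 cells met every condition except Trdc and 80 every condition except Tcrg-C. Of the 198 cells, 38 had both Tcrg-V6 and Trdv4, the 2 V genes that 61 of the 118 members carried together, and 31 had Il17a. Over all kept cells 177 had both V genes, of which 61 were members. The members are thus a part of the cells with this receptor in these libraries. Il17a was found in 144 kept cells, of which 108 were not members, and Cd163l1 in 204, of which 140 were not. Another 82 cells missed only the cap on Klra UMIs, and 11 only the condition on Ncr1. Of the 82, 1 had Tcrg-V6 and 0 had Cd163l1 or Il17a. Shares of these genes among the members, and levels of NK-family genes, therefore depend on the gate.

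Of the receptor segments that distinguish these cells, the last 240 coding bases are printed from the C57BL/6 reference (GENCODE M21, GRCm38, which is the mm10 build used for the files), since the mice were NOD and their own alleles were not read here. Tcrg-V6 lies at chr13:19190368-19190929 on the plus strand and Trdv4 at chr14:54075004-54075515 on the plus strand, and both are V gene segments whose intron is left out. Tcrg-V1, at chr13:19340016-19340454 on the plus strand, is shown as the V gene of the other large group of members. Capitals mark the end of each segment from the codon of the conserved cysteine, where the region that contacts antigen begins before rearrangement adds further bases.
Tcrg-V6: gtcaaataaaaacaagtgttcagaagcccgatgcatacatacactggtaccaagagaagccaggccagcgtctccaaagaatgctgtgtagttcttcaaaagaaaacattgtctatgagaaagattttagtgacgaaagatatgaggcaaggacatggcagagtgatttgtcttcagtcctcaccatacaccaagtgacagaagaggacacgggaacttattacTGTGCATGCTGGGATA
Trdv4: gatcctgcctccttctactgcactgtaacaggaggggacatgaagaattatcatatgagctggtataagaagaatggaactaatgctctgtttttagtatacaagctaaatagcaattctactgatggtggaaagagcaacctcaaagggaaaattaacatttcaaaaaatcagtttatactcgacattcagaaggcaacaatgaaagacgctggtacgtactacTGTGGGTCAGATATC
Tcrg-V1: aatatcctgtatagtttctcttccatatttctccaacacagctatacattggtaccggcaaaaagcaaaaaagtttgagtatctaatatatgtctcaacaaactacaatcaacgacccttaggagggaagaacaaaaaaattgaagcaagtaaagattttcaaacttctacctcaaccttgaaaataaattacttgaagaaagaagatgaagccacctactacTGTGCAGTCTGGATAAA
The capitals differ between the gamma segments: TGTGCATGCTGGGATA in Tcrg-V6 and TGTGCAGTCTGGATAAA in Tcrg-V1. Over the coding sequence, Tcrg-V6 and Tcrg-V1 were 59.4% identical, with a longest shared run of 9 bases. The longest run that Tcrg-V6 shared with any other gamma V gene was 14 bases, with Tcrg-V4, so short reads tell it apart. Tcrg-V1 and Trgv2 were 95.7% identical with a shared run of 74 bases, and Tcrg-C1 and Tcrg-C2 97.4% identical with a shared run of 86 bases. UMIs of Tcrg-V1 and Trgv2, and of Tcrg-C1, Tcrg-C2 and Tcrg-C3, are therefore uncertain as to which gene they came from.

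Tcrg-V6 was the gamma V gene found in most members. It had a UMI in 20 of 31 gamma delta T cells of library 1 (64.5%, interval 45.4 to 80.8%) and 41 of 84 of library 2 (48.8%, interval 37.7 to 60.0%), and in none of the 3 cells of library 3. In the other populations of libraries 1 and 2 its share was at most 0.814% (5 of 614 conventional CD4 T cells of library 1), and it had no UMI in the 194 and 215 B cells, which do not express it. Trdv4 was found in 21 and 45 members of libraries 1 and 2 (67.7% and 53.6%). All 61 members with Tcrg-V6 also had Trdv4. Trdv4 had no UMI in the 707 and 595 CD8 T cells of these libraries and was found in 10.0% and 10.5% of NK cells. After every cell was thinned to 1000 UMIs, Tcrg-V6 was found in 41.9% and 39.3% of the members of libraries 1 and 2, and Trdv4 in 64.5% and 48.8%. V and constant segments were read on the same receptor transcripts as the gate genes, so these shares are a description with no test.

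The second set of V genes was less particular to gamma delta T cells. Trgv2 was found in 38.7% and 47.6% of members of libraries 1 and 2, and in 43.0% and 48.2% of CD8 T cells. Tcrg-V1 was found in 32.3% and 40.5% of members against 5.80% and 21.7% of CD8 T cells. Tcrg-V4 was found in 9 and 14 members (29.0% and 16.7%) and in at most 0.424% of the cells of any other population. Tcrg-V5 had UMIs in 6 and 5 members, and 9 of these 11 cells also had Tcrg-V6. By combination, 33 members had Tcrg-V6 as their sole detected gamma V gene, 16 had Trgv2 with Tcrg-V1 and 12 had Tcrg-V4 with both of those. Of the 12, 8 had a UMI of Trav15-1-dv6-1, a V gene that alpha and delta chains share, and 9 a UMI of Trac, the constant gene of the alpha chain. Trac was found in 58.1% of members of library 1 and 19.0% of library 2, against 55.9% and 56.2% of conventional CD4 T cells and 2.06% and 0% of B cells. As the reads were assigned, Tcrg-C1 was found in 25 of the 33 cells with Tcrg-V6 alone and in 4 of the 16 with Trgv2 and Tcrg-V1, and Tcrg-C2 in 3 of 33 and 9 of 16, with the doubt on near-identical genes given above. Tcrg-C4, which is 76.9 to 79.7% identical to the other constant genes, was found in 17 of 33 and 8 of 16, so it did not divide them.

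**Figure D1:**
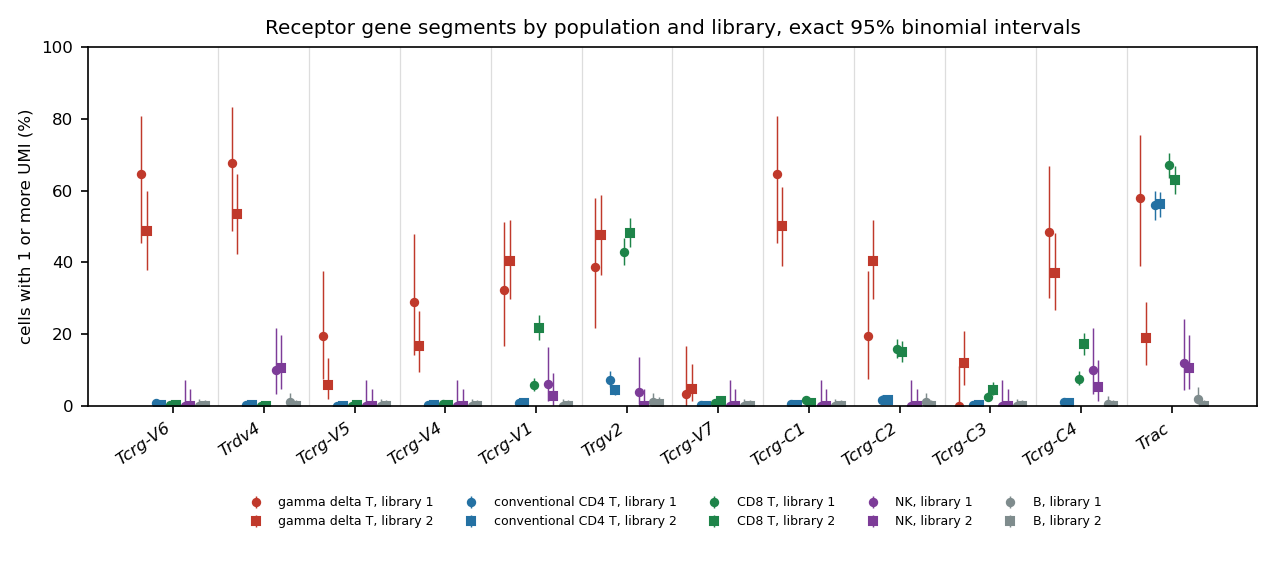
Share of cells with at least 1 UMI (y axis, percent, unthinned) of each receptor segment (x axis) in 5 populations of library 1 (circles) and library 2 (squares), with exact 95% binomial intervals. Tcrg-V6, Trdv4 and Tcrg-V4 are found far more often in gamma delta T cells, while Trgv2 is found at similar shares in CD8 T cells, and the Tcrg-C genes were part of the gate.

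Markers of other cells were counted in the members. The summed UMIs of 8 macrophage and monocyte markers were 2.97 per 10000 in gamma delta T cells of library 1 and 15.5 in library 2, against 5.63 and 6.93 in conventional CD4 T cells and 1.78 and 4.33 in CD8 T cells. Their highest markers in library 2 were Lyz2 and Apoe, while Adgre1 and Mrc1 were at 0 in the members. Leaving out every cell with over 1 UMI of these markers removed 19 of the 118 members, 18 of them from library 2. The 8 NK cell markers, of which the gate had set Ncr1 to 0, summed to 1.23 and 1.93 per 10000 in the members, and the 6 B cell markers to 0.905 and 0.445, with Pax5 and Ebf1 at 0. Markers of conventional CD4 and CD8 T cells, with Cd4 and Cd8b1 set to 0 by the gate, summed to 8.46 and 10.1. They were at 16.6 and 13.4 in conventional CD4 T cells and 27.85 and 22.7 in CD8 T cells. Among them the beta chain constant genes Trbc1 and Trbc2 had 79 and 188 UMIs in the members of libraries 1 and 2. Dendritic cell markers summed to 1.36 and 13.0 in the members, against 25.3 and 22.3 in conventional CD4 T cells and 8.31 and 12.1 in CD8 T cells. Libraries 1 and 2 shared 36 barcodes, among them 3 of the members of library 1 and 2 of those of library 2, and no barcode was a member in both.

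Genes outside the gate were compared with those of 3 other populations of the same nerves: 1611 conventional CD4 T cells (Cd4 and CD3 UMIs, with no Cd8a, Cd8b1, Foxp3 or Trdc), 1403 CD8 T cells (Cd8a, Cd8b1 and CD3 UMIs, with no Cd4 or Trdc) and 139 NK cells (Ncr1 UMIs and no CD3 UMI). UMIs were summed over the cells of each population and library, and a sum needed 10 cells, so gamma delta T cells had 2 sums and each of the others 3. Sums were compared with edgeR's quasi-likelihood test with the library as a block, over 5709 genes, at a Benjamini-Hochberg adjusted p of 0.05. Levels are CPM, a gene's UMIs per 1000000 UMIs of a sum after scaling between sums (TMM), and differences are log2 of gamma delta over the other population. The 3 comparisons share the gamma delta sums, so they are not independent of each other. In summed RNA, fewer cells with a transcript and less of it per cell cannot be told apart.

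Against conventional CD4 T cells, 533 genes differed (9.34% of those tested), 284 higher in gamma delta T cells (4.97%) and 249 lower (4.36%). In the comparison with CD8 T cells 432 differed (7.57%), 253 higher (4.43%) and 179 lower (3.14%). Against NK cells 453 differed (7.93%), 280 higher (4.9%) and 173 lower (3.03%). Without the block, which pairs populations of the same mice, the counts were 206, 125 and 153. Of the genes tested, 317 passed the filter on low counts only through the gamma delta sums, and among the other 5392 the higher genes were 229, 198 and 242. The median log2 difference over all genes tested was -0.01, -0.025 and 0.001. Without library 2 the gamma delta arm was library 1 alone, and 279 genes differed against conventional CD4 T cells; without library 1, 235 differed against CD8 T cells and 244 against NK cells. In these fits the lone sum was assumed to vary like the other populations.

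Most tested genes of the type 17 program of gamma delta T cells were higher than in each other population. The list comprised 24 genes, among them Il17a, the receptors for IL-23 and IL-1, and the scavenger receptor gene Cd163l1, of which 18 were tested. Of the 18, 8 passed the filter on low counts only through the gamma delta sums, Il17a, Cd163l1, Blk, Sox13 and Zbtb16 among them, so these had to come out higher. Of the 10 that passed without the gamma delta sums, 8 were higher and none lower than in conventional CD4 T cells (median log2 difference 1.20). In the same 10, 9 were higher and none lower than in CD8 T cells (median 1.82), and 8 were higher and none lower than in NK cells (median 2.42). Over all 18, the counts higher were 16, 17 and 15.

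Il17a, which encodes the neutrophil-recruiting cytokine IL-17A, stood at 2650 and 1284 CPM in gamma delta T cells of libraries 1 and 2. In conventional CD4 T cells it was at 15.5, 9.54 and 0 CPM in libraries 1 to 3. Thus both gamma delta sums lay above every conventional CD4 sum, with a log2 difference of 7.25 (SE 0.23). Since Il17a passed the filter only through the gamma delta sums, its direction was fixed and no p-value is given. In CD8 T cells 3 UMIs were counted over the 3 libraries against 868 in gamma delta T cells, a ratio of 4370 with a 95% counting interval of 1490 to 21300 (log2 difference 11.97). NK cells had no Il17a UMI, which made gamma delta T cells at least 367-fold higher, against a floor of 3 counts over the group. By cells, Il17a was found in 18 of 31 members of library 1 (58.1%) and 18 of 84 of library 2 (21.4%). Thinned to 1000 UMIs the shares were 48.4% and 17.9%, so library 1 was the higher at equal depth too.

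Cd163l1 was at 1174 and 363 CPM in gamma delta T cells and at 2.71, 3.07 and 0 CPM in conventional CD4 T cells (log2 difference 7.90, SE 0.30). It had 1 UMI in CD8 T cells and none in NK cells, against which gamma delta T cells were at least 134-fold higher. Blk, a Src-family kinase gene used by B cells and by IL-17-producing gamma delta T cells, was at 433 and 134 CPM against at most 1.55 CPM in conventional CD4 T cells (log2 difference 7.41, SE 0.52). Cd163l1 and Blk also passed the filter only through the gamma delta sums, so no p-value is given. For both genes library 1 was above library 2, and neither gamma delta sum overlapped another population.

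The other members of the program ranged widely. Serpinb1a, which encodes a protease inhibitor, was at 391 and 217 CPM in gamma delta T cells against 2.71 to 8.17 CPM in conventional CD4 T cells. Sox13, which encodes a transcription factor of the gamma delta lineage, had 19 UMIs in gamma delta T cells and 3 in the far more numerous conventional CD4 T cells (log2 difference 5.96, SE 1.14). Sox13 too passed the filter only through the gamma delta sums. Ramp1, a subunit of the receptor for the sensory neuropeptide CGRP, was at 1180 and 982 CPM in gamma delta T cells. Its level was 337 to 511.5 CPM in conventional CD4 T cells, 92.9 to 232 CPM in CD8 T cells and 238 to 538.5 CPM in NK cells. The log2 differences were 1.41 (SE 0.24), 2.79 (SE 0.25) and 1.63 (SE 0.26), each past the threshold. Il7r, the receptor for the survival cytokine IL-7, was higher than in CD8 T cells by a log2 difference of 2.05 (SE 0.17, edgeR adjusted p = 1.15e-08) and than in NK cells by 3.15 (SE 0.23). Maf, a transcription factor gene that many T cells use, was at 308 and 119 CPM in gamma delta T cells and 273 to 305 CPM in conventional CD4 T cells (log2 difference -0.56, edgeR adjusted p = 0.16). Without library 1 Maf passed the threshold at -1.21 (edgeR adjusted p = 0.0016), and without library 2 its difference was 0.05 (edgeR adjusted p = 0.98).

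Of the members below the count filter, Il23r, the receptor for IL-23, had 34 UMIs in gamma delta T cells, 4 in conventional CD4 T cells, 1 in CD8 T cells and none in NK cells. It was found in 17 of 31 members of library 1 and 7 of 84 of library 2. Il17f had 2 UMIs and Ccr6 had 4 in gamma delta T cells. Il22 had none in any of the 4 populations.

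**Figure D2:**
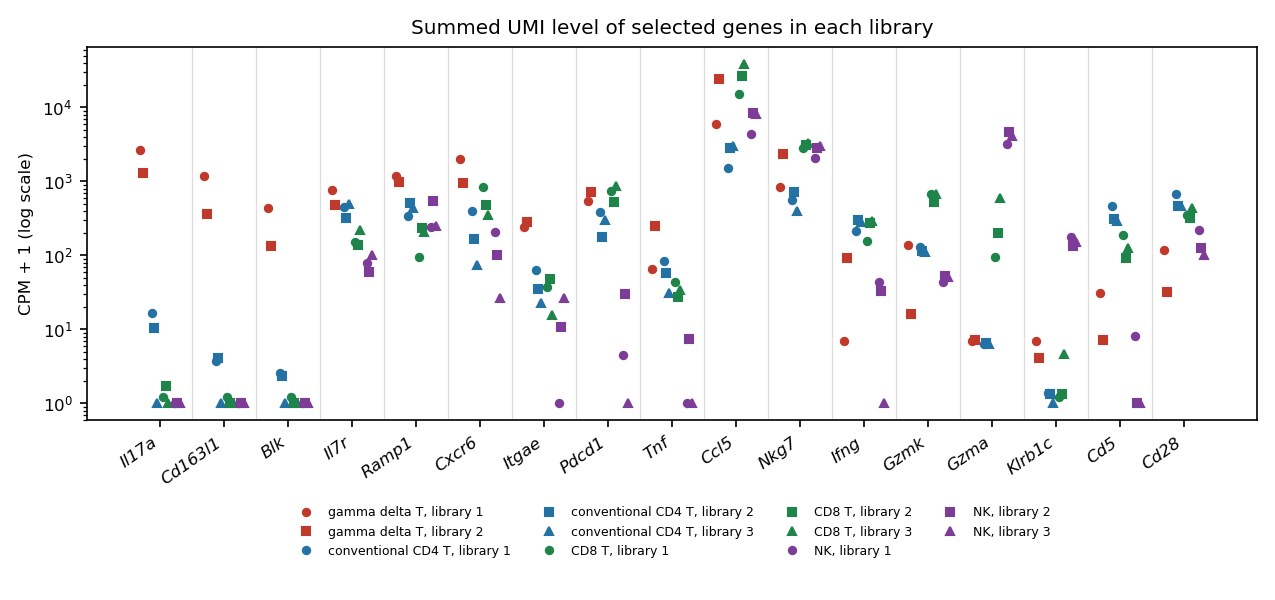
Summed level of selected genes (x axis) as CPM + 1 on a log scale (y axis) in gamma delta, conventional CD4, CD8 and NK cells, with 1 point for each library. Il17a, Cd163l1 and Blk lie far above the other populations in both gamma delta sums, Itgae lies above them by less, and Gzma and Klrb1c lie far below NK cells.

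Type 1 and cytotoxic genes, 23 of 24 tested, gave a mixed picture against conventional CD4 T cells, with 10 higher and 4 lower (median log2 difference 0.90). Against CD8 T cells none was higher and 10 were lower (median -0.85, or -0.81 at bounds). Against NK cells 1 was higher and 13 were lower (median -0.99). Ifng, which encodes interferon gamma, was at 5.93 CPM in gamma delta T cells of library 1 and 91.5 CPM in library 2. Conventional CD4 T cells had 215.5, 295 and 281.5 CPM, above both, with a log2 difference of -2.17 (SE 0.33, edgeR adjusted p = 8.36e-05). CD8 T cells had 157, 275 and 292 CPM (log2 difference -1.96, SE 0.34, edgeR adjusted p = 0.00041).

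Klrk1, which encodes the activating receptor NKG2D, was at 207.5 and 290 CPM in gamma delta T cells and at 10.8 to 26.7 CPM in conventional CD4 T cells (log2 difference 3.57, SE 0.29, edgeR adjusted p = 6.62e-09). Ccl5, a chemokine gene of cytotoxic cells, was at 5916 CPM in library 1 and 23900 CPM in library 2, against 1500 to 2988 CPM in conventional CD4 T cells (log2 difference 2.63, SE 0.19). Nkg7, which encodes a granule membrane protein, was at 842 and 2334 CPM, against 392.5 to 725 CPM in conventional CD4 T cells (log2 difference 1.39, SE 0.22). Without library 2 that call was lost (log2 difference 0.80, edgeR adjusted p = 0.20). Nkg7 was lower than in CD8 T cells (log2 difference -1.04, SE 0.23), a call lost without library 1 (log2 difference -0.57, edgeR adjusted p = 0.32).

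Granzyme genes differed from one another. Gzmb was at 59.3 CPM in gamma delta T cells of library 1 and 2337 CPM in library 2, against 64.2, 128 and 35.2 CPM in conventional CD4 T cells, 315, 353 and 784.5 CPM in CD8 T cells and 1273, 1048 and 503 CPM in NK cells. Library 1 thus lay below the CD8 T and NK cells and library 2 above them. The log2 differences were 3.62 from conventional CD4 T cells (SE 0.60, edgeR adjusted p = 0.00020), 1.16 from CD8 T cells (edgeR adjusted p = 0.32) and -0.12 from NK cells (edgeR adjusted p = 0.95). Without library 2 they were 0.09, -3.12 and -4.04, and without library 1 they were 4.52, 2.02 and 1.38, so the direction against CD8 T and NK cells turned between the libraries. Gzma had 3 UMIs in gamma delta T cells (5.93 and 6.1 CPM), against 3227, 4622 and 4072 CPM in NK cells, a level in NK cells 656 times as high (counting interval 224 to 3180). Gzmk was at 136 and 15.3 CPM against 525 to 679 CPM in CD8 T cells (log2 difference -3.34, SE 0.34, edgeR adjusted p = 4.73e-07). Eomes, which encodes a transcription factor of NK and memory CD8 T cells, was at 41.5 and 9.15 CPM against 185 to 352 CPM in NK cells (log2 difference -3.22, SE 0.48). Prf1, the pore-forming perforin gene, was also lower than in NK cells (log2 difference -1.73, SE 0.37, edgeR adjusted p = 0.0038).

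Innate signalling and NK-family receptor genes, 15 of 16 tested, included 8 higher and 1 lower than in conventional CD4 T cells (median log2 difference 1.28). Relative to CD8 T cells 4 were higher and 1 was lower (median 0.24), and against NK cells 1 was higher and 8 were lower (median -1.91). Fcer1g, a signalling chain shared by Fc receptors and some T cell receptors, was at 213 and 680 CPM in gamma delta T cells, 127 to 201 CPM in conventional CD4 T cells and 32.8 to 123 CPM in CD8 T cells. NK cells had 1248 to 1979 CPM. Its difference from CD8 T cells was 2.33 (SE 0.30, edgeR adjusted p = 1.17e-05) and from conventional CD4 T cells 1.28 (SE 0.30), the latter lost without library 2 (0.19, edgeR adjusted p = 0.91). Myeloid cells also use Fcer1g, and with cells of over 1 macrophage or monocyte marker UMI left out the difference from conventional CD4 T cells was 4.61 and from CD8 T cells 4.33. Klrb1c, an NK cell receptor gene, had 2 UMIs in gamma delta T cells and was at 133 to 177 CPM in NK cells. Tyrobp, an adaptor of NK receptors, was at 237 and 439 CPM against 1546 to 2112 CPM in NK cells (log2 difference -2.62, SE 0.32). Lat, the adaptor beside the T cell receptor, was the 1 higher than in NK cells (889 and 659 CPM against 50.3 to 104 CPM).

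Genes associated with alpha beta T cell signalling, all 14 tested, were mostly on the lower side, where 8 were lower than in conventional CD4 T cells and 7 lower than in CD8 T cells, and none was higher in either comparison (medians -1.23 and -0.97). Against NK cells 3 were higher and 4 lower (median 0.63). Cd5, which encodes a damper of T cell receptor signalling, was at 29.6 and 6.1 CPM in gamma delta T cells. Conventional CD4 T cells had 466, 306.5 and 290 CPM and CD8 T cells 186.5, 90.1 and 124 CPM, so no sums overlapped. The log2 differences were -4.64 (SE 0.35, edgeR adjusted p = 3.26e-09) and -3.15 (SE 0.40). Cd6, a relative of Cd5, differed from conventional CD4 T cells by -3.51 (SE 0.35). The costimulatory receptor gene Cd28 was at 119 and 30.5 CPM against 462 to 665 CPM in conventional CD4 T cells (log2 difference -3.05, SE 0.31) and 316 to 441.5 CPM in CD8 T cells (log2 difference -2.49, SE 0.31). Icos, its relative, was at 652 and 357 CPM, above the 75.4 to 149 CPM of NK cells (log2 difference 2.15, SE 0.22, edgeR adjusted p = 5e-07). Icos was among the 8 genes lower than in conventional CD4 T cells, and was not called against CD8 T cells (log2 difference 0.15, edgeR adjusted p = 0.72).

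Residency and egress genes, 12 of 14 tested, moved both ways. Against conventional CD4 T cells 4 were higher (Cxcr6, Itgae, Itga1 and Rgs2) and 4 lower (S1pr1, Klf2, Ccr7 and Bhlhe40), with a median of 0.21. Against CD8 T cells 6 were higher and 3 lower (median 0.53), and against NK cells 4 higher and 2 lower (median 0.49). Cxcr6, the receptor for CXCL16, was at 2027 and 955 CPM in gamma delta T cells, the highest level in either library. Its levels were 398, 163.5 and 73.1 CPM in conventional CD4 T cells, 850, 483 and 354 CPM in CD8 T cells and 25.1 to 206 CPM in NK cells. The log2 differences were 2.52 (SE 0.18, edgeR adjusted p = 1.53e-09), 1.02 (SE 0.18) and 3.31 (SE 0.23). The call against CD8 T cells was lost without library 2 (log2 difference 0.99, edgeR adjusted p = 0.056). Cxcr6 was found in 29 of 31 members of library 1 (93.5%) and 72 of 84 of library 2 (85.7%), and in 5.67% and 0% of B cells. At 1000 UMIs the members' shares were 80.6% and 57.1%, against 47.4% and 31.3% of CD8 T cells.

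Itgae, the alpha chain of the CD103 integrin that binds E-cadherin, was at 237 and 284 CPM in gamma delta T cells. It was at 63.1, 33.7 and 21.7 CPM in conventional CD4 T cells, 36.8, 46.3 and 14.6 CPM in CD8 T cells and 0, 9.73 and 25.1 CPM in NK cells. The log2 differences were 2.48 (SE 0.28), 2.71 (SE 0.28) and 5.32 (SE 0.57), and both gamma delta sums lay above all the others. Itga1, which encodes a collagen-binding integrin chain, was higher than in conventional CD4 T cells by 3.55 (SE 0.49) and than in CD8 T cells by 1.92 (SE 0.42). It was not called against NK cells (41.5 and 91.5 CPM against 58.4 to 151 CPM, log2 difference -0.11, edgeR adjusted p = 0.94). Both Itga1 calls were lost without library 2 (log2 differences 2.64 and 1.28, edgeR adjusted p = 0.096 and 0.59). S1pr1, the receptor with which T cells leave tissues, was at 23.7 and 18.3 CPM against 255, 164 and 222 CPM in conventional CD4 T cells (log2 difference -3.24, SE 0.36, edgeR adjusted p = 8.92e-07). Klf2, which encodes a factor that drives S1pr1, differed by -1.45 (SE 0.19), and the lymph node homing receptor gene Ccr7 by -3.71 (SE 0.52). S1pr1 was also lower than in CD8 T cells (log2 difference -1.68, SE 0.42) but was not called against NK cells (0.46, edgeR adjusted p = 0.79).

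Of 10 chemokine receptor genes 5 were tested, and 1 was higher in each of the 3 comparisons: Ccr2, the receptor for monocyte-attracting chemokines. It was at 557 and 259 CPM in gamma delta T cells, against 252, 98.8 and 73.1 CPM in conventional CD4 T cells (log2 difference 1.29, SE 0.19). The Ccr2 differences from CD8 T cells (0.99) and NK cells (0.96) were lost without library 1 (0.79 and 0.76, edgeR adjusted p = 0.059 and 0.22). Ccr8 was at 29.6 and 9.15 CPM against 67.8 to 220 CPM in conventional CD4 T cells (log2 difference -2.91, SE 0.52). Against conventional CD4 T cells 2 of the 5 were lower, against CD8 T cells 1 and against NK cells 2 (medians -0.999, 0.26 and 0.22).

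Inhibitory receptor, Nr4a and Egr genes, 13 of 14 tested, were lower in 5 and higher in 3 cases than in conventional CD4 T cells (median -0.58). They were lower in 7 and higher in none against CD8 T cells (median -0.88), and higher in 2 and lower in 1 against NK cells (median 0.21). Pdcd1, the gene of PD-1, was at 539 and 708 CPM in gamma delta T cells and 745, 528 and 861 CPM in CD8 T cells, so these overlapped (log2 difference 0.01, SE 0.25). NK cells had 3.55, 29.2 and 0 CPM (log2 difference 5.38, SE 0.45, edgeR adjusted p = 1.98e-08) and conventional CD4 T cells 383, 178 and 298 CPM (log2 difference 1.32, SE 0.26). Without library 2 the last was lost (log2 difference 0.61, edgeR adjusted p = 0.44). Havcr2, the gene of TIM-3, was at 17.8 and 3.05 CPM against 89.4 to 156 CPM in CD8 T cells (log2 difference -3.82, SE 0.49). Tox, which encodes a factor of exhausted T cells, differed from CD8 T cells by -1.86 (SE 0.29, edgeR adjusted p = 0.00012).

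Cytokine and tissue factor genes, 8 of 16 tested, held 1 higher and 2 lower against conventional CD4 T cells (median -0.49). Il10 and Il21 had no UMI in gamma delta T cells and were at least 22.1-fold and 13.9-fold lower than in conventional CD4 T cells. Tnf was at 65.2 and 250 CPM in gamma delta T cells against 82.0, 56.9 and 29.8 CPM in conventional CD4 T cells (log2 difference 1.44, SE 0.35, edgeR adjusted p = 0.0070). Without library 2 the Tnf difference was -0.29. The call was also lost with DESeq2 (1.29, DESeq2 adjusted p = 0.28) and with Trdc of 2 or more (0.72, edgeR adjusted p = 0.33). From CD8 T cells the difference was 2.34 (SE 0.36), or 0.53 without library 2 (edgeR adjusted p = 0.81), and against NK cells, which had 2 UMIs, the ratio was 59.0 (counting interval 15.9 to 495). Against CD8 T cells 3 of the 8 were higher and 1 lower (median 0.80), and against NK cells again 3 and 1 (median 1.55).

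Transcription factors of innate-like lymphocytes, 8 of 12 tested, gave 2 higher and 1 lower against conventional CD4 T cells, 2 and 1 against CD8 T cells, and 2 and 0 against NK cells (medians -0.42, 0.025 and -0.16). Genes of dividing cells, all 10 tested, were lower in 5 cases than in conventional CD4 T cells and in 9 cases than in CD8 T cells, with none higher (medians -1.25 and -2.37). Mki67, the proliferation antigen Ki-67, was at 5.93 and 9.15 CPM against 75.6, 79.2 and 21.9 CPM in CD8 T cells (log2 difference -3.24, SE 0.49, edgeR adjusted p = 0.00011). Its difference from conventional CD4 T cells (-2.44) was lost without library 2 (-2.84, edgeR adjusted p = 0.15). Against NK cells 1 was higher and none lower (median 0.25).

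**Figure D3:**
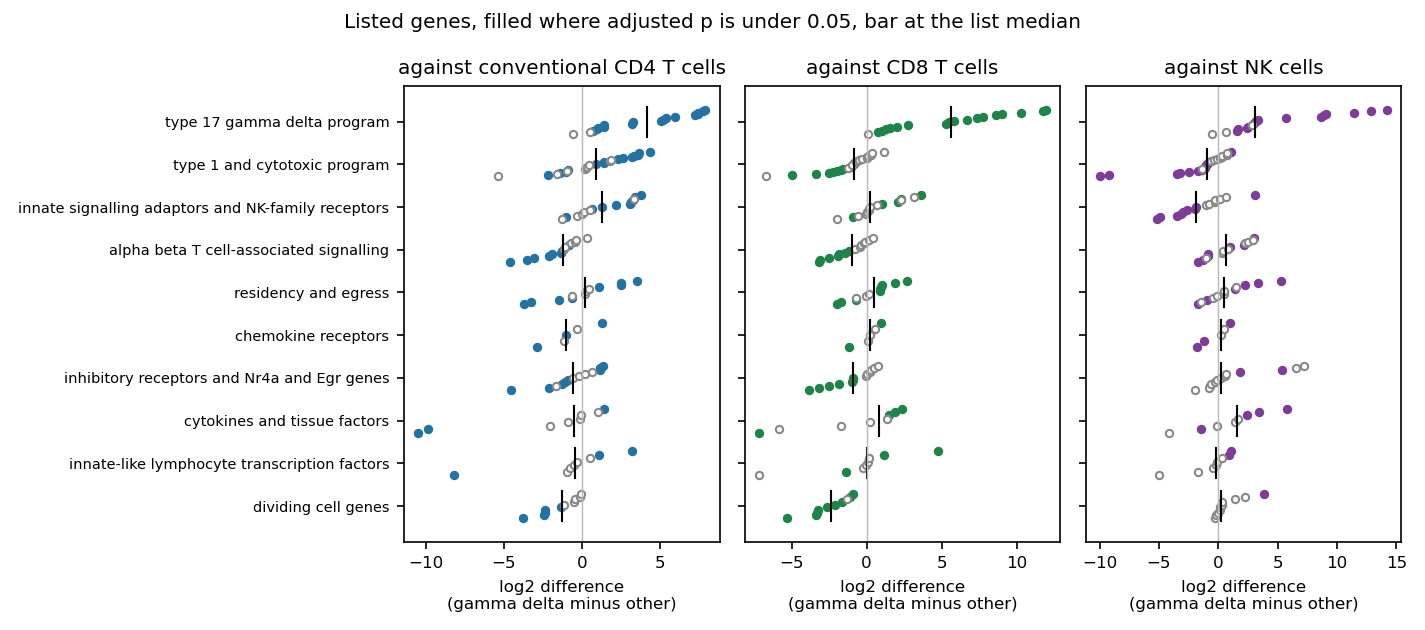
Log2 difference of each tested gene (x axis, gamma delta T cells minus the other population) by gene list (y axis), against conventional CD4 T, CD8 T and NK cells. Filled points have an edgeR adjusted p under 0.05, bars mark list medians, and points of genes with no UMI in a population depend on the prior count of the fit; most type 17 genes lie to the right in all 3 panels, where 8 of the 18 passed the filter only through the gamma delta sums.

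Among the 5 largest differences in each direction, Zbtb16, which encodes the innate-like T cell factor PLZF, had 25 UMIs in gamma delta T cells against 1 in conventional CD4 T cells (ratio 297, counting interval 48.6 to 12200). Zbtb16 passed the filter on low counts only through the gamma delta sums, so it had to come out higher. Ablim3, which encodes an actin-binding protein, was the one of the 5 higher genes outside the type 17 program (94.8 and 45.8 CPM against at most 1.02 CPM). Conventional CD4 T cells were too low in Ablim3 to carry it past the filter. Whether it passed without the gamma delta sums is not reported here, so its direction is a description only. Lower than in conventional CD4 T cells were Tnfsf8, the gene of CD30 ligand, with no UMI in gamma delta T cells (at least 44.3-fold), 1700019D03Rik (at least 21.6-fold), Il10, Il21 and Tbc1d4, which had 1 UMI against 1428.

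In the CD8 comparison, Abi3bp, an extracellular matrix gene with 23 UMIs against 1, was among the largest differences upwards (ratio 348, counting interval 56.5 to 14300). CD8 T cells were too low in Abi3bp to carry it past the filter, so its direction too is a description only. Downwards came Nrn1 (1 UMI, 40.1 times as high in CD8 T cells, counting interval 7.17 to 1590), Pclaf, a gene of DNA replication (2 UMIs against 890), Gzma, and Cd200 (0 and 15.3 CPM against 120 to 179 CPM). Ifitm1 had no UMI in gamma delta T cells and was at least 6.99-fold lower, but its call (edgeR adjusted p = 0.045) was lost without library 2 (0.64) and without library 3 (0.13).

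Against NK cells Chil1, which encodes a chitinase-like secreted protein, and Actn2, an alpha-actinin gene, had 153 and 80 UMIs in gamma delta T cells and none in NK cells (at least 64.7-fold and 33.8-fold higher). NK cells could not have carried Chil1 or Actn2 past the filter, so these directions are a description only. Klra8, an Ly49 receptor gene, had 219 UMIs in NK cells and none in gamma delta T cells (at least 57.5-fold lower), but the gate had capped the UMIs of 3 other Klra genes. Klrg1 was at least 13.9-fold lower. Serpinb9b, Tmsb15a and Gpc1 had no UMI in gamma delta T cells, and their calls were lost without library 1 (edgeR adjusted p = 0.14, 0.39 and 0.23), that of Gpc1 also without library 2 (0.072).

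Pairs of genes were counted within the members, as a description with no test. Il17a was found in 36 members and Ifng in 16, and no member had both. Cd163l1 was found in 64 members and Cd8a, the CD8 alpha chain gene, in 26, with 1 cell having both. Fcer1g was found in 41 members, and 10 of them also had Cd163l1. Of the 61 members with Tcrg-V6, 59 had Cd163l1.

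The members were therefore described by receptor: 61 with Tcrg-V6 (20, 41 and 0 in libraries 1 to 3) and 52 with neither Tcrg-V6 nor Trdv4 (10, 39 and 3). The other 5 had Trdv4 alone. This division was made after the values had been seen and the cells of a library are not replicates, so shares are given for libraries 1 and 2 with no test. Median UMIs were 4431 and 2445 in the Tcrg-V6 cells and 5113 and 3935 in the cells with neither, so the latter were the deeper in both libraries.

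Several type 17 genes were found mostly in the Tcrg-V6 cells in both libraries. Cd163l1 was found in 20 of 20 and 39 of 41 Tcrg-V6 cells (100% and 95.1%) and in 1 of 10 and 1 of 39 with neither (10.0% and 2.56%). Il17a was found in 17 of 20 and 17 of 41 (85.0% and 41.5%) against 1 of 10 and 0 of 39, where a count of 0 allows up to 7.69% of cells with a UMI (3 of 39). Blk, Maf and Serpinb1a followed, at 56.1 to 90.0% of Tcrg-V6 cells and 0 to 20.0% of the cells with neither. Il23r was found in 15 of 20 Tcrg-V6 cells of library 1 but 6 of 41 of library 2 (75.0% and 14.6%). Il7r was more widely shared, in 19 of 20 and 34 of 41 Tcrg-V6 cells and 6 of 10 and 18 of 39 of the others.

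Several cytotoxic and type 1 genes were found mostly in the cells with neither V gene. Nkg7 was found in 10 of 10 and 37 of 39 of these (100% and 94.9%) against 7 of 20 and 2 of 41 Tcrg-V6 cells. Klrd1, which encodes the NK receptor chain CD94, was found in 90.0% and 82.1% against 0% and 2.44%. Ccl5 was at 16210 and 35770 CPM in these cells and at 308.5 and 795 CPM in Tcrg-V6 cells (here CPM of the cells' own UMIs, with no scaling between sums). Ifng was found in 1 of 10 and 13 of 39 cells with neither and in none of the 61 Tcrg-V6 cells, where a count of 0 allows up to 4.92% of cells with a UMI (3 of 61). Tbx21 was found in 2 of 10 and 17 of 39 cells with neither against 1 of 20 and 1 of 41 Tcrg-V6 cells. Gzmb was found in 2 of 10 and 10 of 39, and its unscaled level was 3815 CPM in library 2 against 117 CPM in library 1.

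Several signalling and inhibitory receptor genes also divided the members. Lck, the kinase that starts T cell receptor signalling, was found in 90.0% and 71.8% of the cells with neither and in 15.0% and 4.88% of Tcrg-V6 cells. For Cd2, an adhesion receptor, the shares were 90.0% and 56.4% against 15.0% and 12.2%. Lag3 was found in 5 of 10 and 25 of 39 cells against 1 of 20 and 1 of 41, and Tigit in 70.0% and 61.5% against 10.0% and 2.44%. Pdcd1 did not divide them, at 5 of 10 and 27 of 39 cells with neither against 13 of 20 and 24 of 41 with Tcrg-V6. Icos was found in 80.0% and 38.5% against 90.0% and 85.4%.

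Among tissue-retention genes, Cxcr6 was found in both kinds of member and Itga1 in 1 kind. Cxcr6 was found in 100% and 97.6% of Tcrg-V6 cells and 80.0% and 71.8% of the cells with neither. Itga1 was found in 7 of 10 and 17 of 39 cells with neither and in none of 61 Tcrg-V6 cells. Itgae was found in 3 of 10 and 22 of 39 cells with neither against 9 of 20 and 9 of 41, so its order turned between libraries. Tnf was found in 21 of 41 Tcrg-V6 cells of library 2 (51.2%) but 3 of 20 of library 1 (15.0%). The cells with neither differed between libraries too: Cd8a was found in 24 of 39 in library 2 and 1 of 10 in library 1, and Fcer1g in 69.2% and 30.0%.

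Markers of myeloid cells moved with the Tcrg-V6 cells of library 2. Lyz2 had 266 UMIs in them (15 of 41 cells, 2202 unscaled CPM) and 1 UMI in those of library 1, and H2-Aa, a class II gene, was at 2691 and 187 CPM. In the cells with neither, Lyz2 had 31 UMIs in library 1 and 8 in library 2. In the whole sums Lyz2 and Apoe were higher than in CD8 T and NK cells. The part of these transcripts in the differences above was not tested. With cells of over 1 macrophage or monocyte marker UMI left out, 582 genes differed from conventional CD4 T cells, 465 from CD8 T cells and 474 from NK cells. With barcodes shared between libraries left out the counts were 515, 408 and 433.

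**Figure D4:**
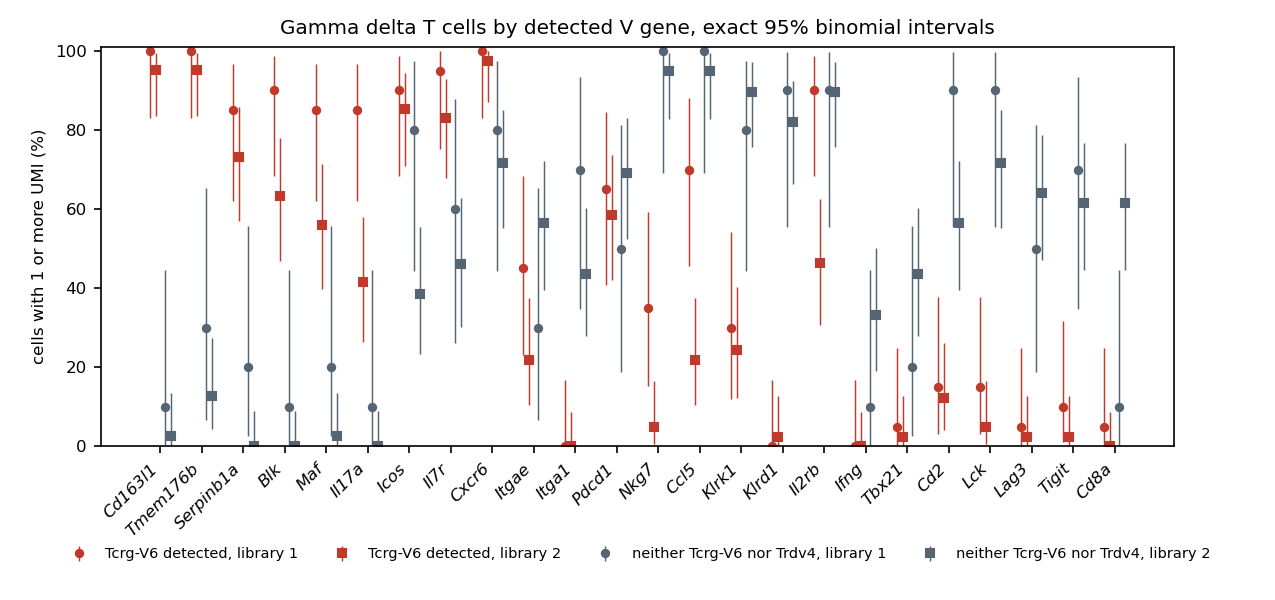
Share of gamma delta T cells with at least 1 UMI (y axis, percent, unthinned) of each gene (x axis), for cells with Tcrg-V6 (red) and with neither Tcrg-V6 nor Trdv4 (grey) in library 1 (circles) and library 2 (squares), with exact 95% binomial intervals. Cd163l1 to Il17a are higher in Tcrg-V6 cells, Nkg7, Klrd1, Lck, Lag3 and Tigit in the cells with neither, and Pdcd1 and Cxcr6 are found in both.

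The 3 members of library 3 entered no sum. None had Tcrg-V6 or Trdv4, and their gamma V genes were Trgv2 with Tcrg-V1, Trgv2 alone and Tcrg-V1 alone. Nkg7 and Ccl5 had UMIs among them, and Il17a and Cd163l1 had none, which in 3 cells sets no useful limit.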

How the data were processed

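The authors deposited unnormalised UMI counts per gene and cell barcode, made with Cell Ranger (version 5.0.1 for library 1 and 6.1.2 for the others, per the file headers) on mm10, of 32285 genes. The first library came without a gene list, so its rows were read in the order of the others, which was checked by the rank correlation of gene totals (0.950 and 0.929). Cells with over 5000 genes or over 20% mitochondrial UMIs were left out, as in the study, whose lower limit on UMIs removed no further barcode, and no doublet caller was run. This left 3848, 8256 and 1533 of 3926, 8311 and 1533 barcodes.

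The gate genes (16) and antigen receptor genes (267) stayed in the totals but were not tested. Sums per population and library of at least 10 cells (2 gamma delta, 3 of each other population) entered 1 edgeR 4.0.16 quasi-likelihood fit in R 4.3.3 with TMM scaling, filterByExpr and the library as a block, since all populations of a library came from the same mice. Call threshold: Benjamini-Hochberg adjusted p of 0.05 over 5709 genes. Folds of genes at 0 are lower bounds against 3 counts over the group, and ratios of 1 to 3 counts carry exact counting intervals. Intervals of shares are exact binomial at 95%.

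Genes were named from the lists described and as the 5 largest differences in each direction among called genes with the same sign in every library and a mean of at least 50 CPM in the higher population, and some genes that this rule takes are not reported here. The members and lists were chosen with earlier results of these data known, so none of their patterns is independent evidence. On simulated data for the comparison with conventional CD4 T cells, 83 of 95 genes changed by 2 on the log2 scale were called, 44 of 94 changed by 1, and 7 of 5049 unchanged. Apart from the changed genes, every simulated sum had the same mean profile, with no difference between libraries. Each gene had the same spread in all sums, so these rates hold for that setting only. Alternatives included DESeq2 1.42.0, other scaling, no filter, no block, stricter gates, thinned cells and libraries left out. Leaving out shared barcodes or cells with macrophage markers was added after the data were seen.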

Additional observations from a re-analysis of the deposited data

How the results depend on the processing

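Over 89 named differences and 1307 comparisons with alternatives, 1232 kept their direction and side of the threshold, 58 lost the call, 4 gained it and 13 changed sign. Counts below are against conventional CD4 T, CD8 T and NK cells in that order, with higher and lower in parentheses. With no replicate block they were 206 (114 and 92), 125 (89 and 36) and 153 (105 and 48). That fit lost 18 named calls: Ramp1, Klf2, Ccr2, Pdcd1, Tnf, Fcer1g and Mki67 against conventional CD4 T cells, Ifitm1, Cxcr6, Itga1, Nkg7, Ifng, Tox and Ccr2 against CD8 T cells, and Ramp1, Fcer1g, Prf1 and Ccr2 against NK cells. With Trdc of 2 or more they were 342 (177 and 165), 185 (115 and 70) and 240 (162 and 78), and with each cell thinned to 1000 UMIs 218 (107 and 111), 187 (107 and 80) and 163 (89 and 74). The lower genes against CD8 T cells were 108 with DESeq2 and 280 without the filter. With 1 replicate left out at a time, the counts against conventional CD4 T cells ran from 279 to 520 (124 to 304 higher, 155 to 216 lower). Against CD8 T cells they ran from 235 to 436 (145 to 271 higher, 90 to 165 lower), and against NK cells from 244 to 404 (175 to 239 higher, 69 to 165 lower). The difference of Maf from conventional CD4 T cells ran from -1.21 to 0.05 and that of Tnf from -0.29 to 2.18. The difference of Pdcd1 from CD8 T cells, which did not pass the threshold, was -0.18 with no replicate block, -0.06 with DESeq2, -0.10 without the filter, -0.07 without cells with Trac, -0.03 without the deepest cells and -0.27 with thinned cells, and ran from -0.62 to 0.40 with 1 replicate left out. The difference of Gzmb from CD8 T cells ran from -3.12 to 2.02 with 1 replicate left out and that from NK cells from -4.04 to 1.38, and the latter was 0.32 with no replicate block and 0.06 with Trdc of 2 or more. Its call against conventional CD4 T cells was lost with DESeq2. Of the named calls, DESeq2 lost 6 and Trdc of 2 or more lost 8, that of Tnf against conventional CD4 T cells in both. The cause of these changes was not tested. The mean share of members with Tcrg-V6 was 40.6% at 1000 UMIs, 27.7% at 500 and 56.7% without thinning, and without thinning Ifng was at 10.5% and Cxcr6 at 89.6%. A test of Tcrg-V4 or Tcrg-V6 cells against Tcrg-V1, Trgv2 or Tcrg-V3 cells was not run, since library 1 held 1 cell of the latter.

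With 118 cells and 2 sums, genes of low level and the 3 members of library 3 were beyond reach, and the gate on sparse counts missed cells with the same V genes. Its cap on Klra UMIs alone left out 82 further cells, 1 of them with Tcrg-V6.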
